A study of Mus musculus with 8 samples.

Results

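The breakdown of the branched-chain amino acids leucine, isoleucine and valine was followed through 10 enzyme genes of brown adipose tissue: Bcat2, Bckdha, Bckdhb, Dbt, Bckdk, Ivd, Mccc1, Mccc2, Hibch and Hibadh. They were picked out by gene symbol, and each was represented by its transcript row with the highest total count. All 10 were found among the 23372 genes of the count table, and all 10 passed the filter on low counts that left 14178 genes for testing. Total RNA of brown adipose tissue, a fat depot specialised in heat production, had been sequenced from mice aged 10 weeks on the C57BL/6 N background. Control mice (4 libraries, numbered 511, 514, 517 and 518) were Lsd1 floxed. Knockout mice (4 libraries, numbered 512, 513, 515 and 516) carried the floxed Lsd1 alleles with Ucp1-Cre, so both groups share the floxed alleles, while deletion and Cre transgene went together. The Ucp1 promoter drives Cre in brown adipocytes, and the other cells of the tissue keep Lsd1, a histone demethylase encoded by Kdm1a. The comparison asks how the transcript levels of these enzymes change once brown adipocytes lose Lsd1.

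Branched-chain amino acids first lose their amino group to a transaminase, which in mitochondria is Bcat2. The resulting keto acids are then committed to oxidation by the branched-chain keto acid dehydrogenase complex, whose activity is set by a kinase that switches it off (Bckdk) and a phosphatase that switches it on (Ppm1k). After this shared step the carbon skeletons follow separate routes, leucine towards acetyl-CoA and acetoacetate, valine and isoleucine towards propionyl-CoA and the TCA cycle. Active brown fat is known to take up these amino acids and oxidise them in its mitochondria, which they enter through the carrier Slc25a44.

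The libraries held 33011022 to 38756920 counts summed over all rows. Of the counts in the rows kept per gene, the 10 enzymes made up 0.321% to 0.412% in control libraries and 0.278% to 0.294% in knockout libraries. Kdm1a was lower in every knockout library, with a mean of 35.4 ± 1.52 CPM for the controls against 13.1 ± 0.711 CPM for the knockouts (SD, n = 4 each). All 10 brown adipocyte markers were detected in the tissue, and so were all 20 markers of skeletal muscle. The muscle markers summed to 502.3 to 9017.5 CPM in controls and 10087.4 to 22618.4 CPM in knockouts, so the groups did not overlap. Levels are given as CPM, a gene's counts relative to the library total, scaled by edgeR's TMM factors, and a change as the log2 fold change of knockout over control with its standard error (SE). A gene was called when the Benjamini-Hochberg adjusted p of edgeR's quasi-likelihood test, taken over all genes tested, was under 0.05. The labels number the libraries but do not say whether each came from a separate animal, so the p-values reflect only how far these samples spread, which may be technical.

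Of the 10 enzymes 7 fell in the knockouts (Bckdha, Dbt, Ivd, Mccc1, Mccc2, Hibch and Hibadh) and 0 rose, against a background of 18.9% of all genes tested that were called lower and 34.4% called in either direction. The 3 enzymes that did not pass were Bcat2, Bckdhb and Bckdk, all with log2 fold changes below 0. In 8 of 10 enzymes every knockout library lay below every control library, which held for 19.7% of all genes tested. The median log2 fold change of the 10 was -0.60, beside -0.01 for all genes tested. The 7 that fell were close in size, between -0.56 for Ivd and -0.70 for Mccc1, while Bckdk stood at -0.18 and Bckdhb at -0.37. The count was 6 with library sizes alone, beside 6.56% of all genes, and 1 with library factors set by general fat cell genes, beside 1.44%. Under those factors Bckdk and Bckdhb stood above 0. The count was 9 with DESeq2 and 9 with limma-voom, each adding Bcat2 and Bckdk, beside 20.1% of all genes called lower by either tool. In bulk tissue fewer cells of a type and less RNA per cell cannot be told apart.

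**Figure D1:**
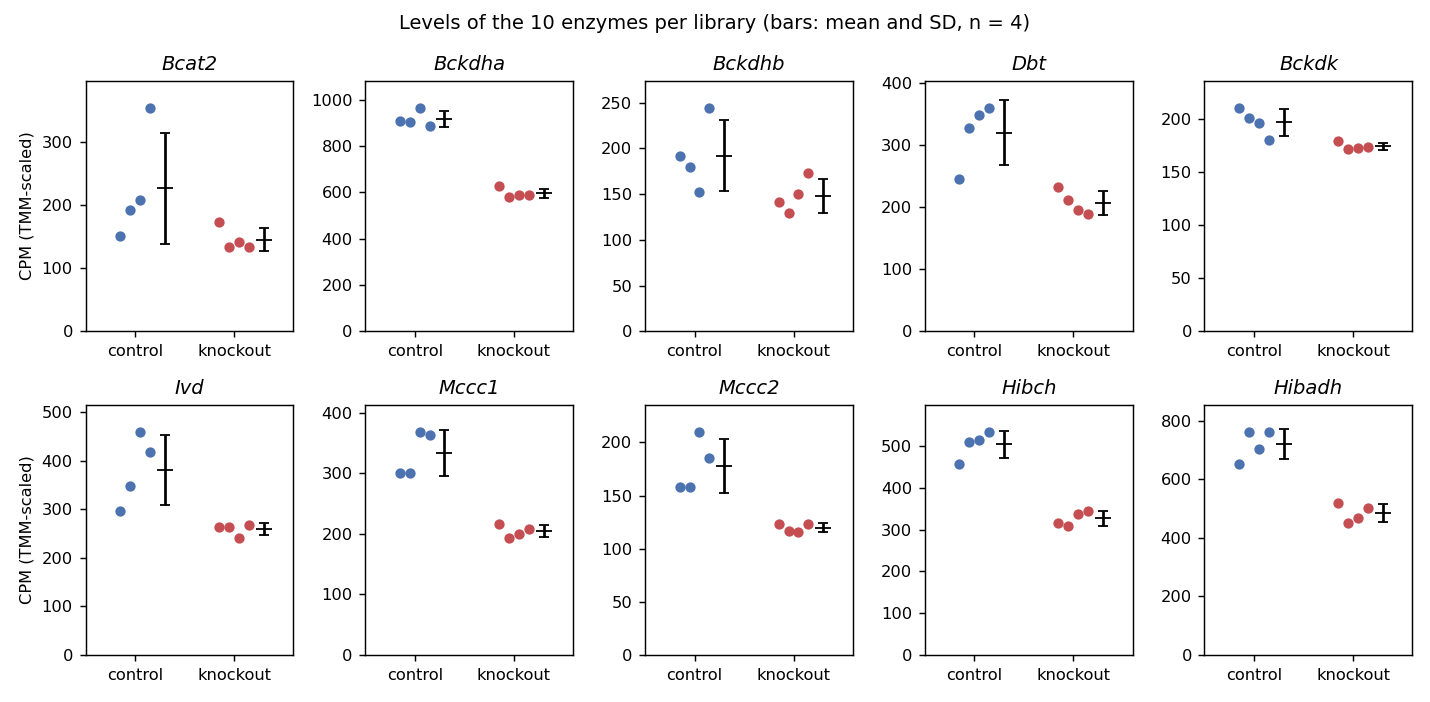
Level of each enzyme in CPM (y axis from 0, scale differing between panels) in the 4 control and 4 knockout libraries, each point a library, with the mean and SD beside them. The groups are separate for all enzymes but Bcat2 and Bckdhb, and control library 518 stands highest for Bcat2 (354.1 CPM) and Bckdhb (244.4 CPM).

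At the entry of the pathway, Bcat2 (NM_009737; mm10, chromosome 7, 45570153 to 45589710, plus strand) encodes the mitochondrial transaminase. Bcat2 stood at 151.0, 192.1, 208.6 and 354.1 CPM in control libraries 511, 514, 517 and 518, and at 173.0, 134.0, 141.5 and 132.8 CPM in knockout libraries 512, 513, 515 and 516. Control 518 was far above the other controls, and knockout 512 lay above control 511, so the groups overlapped. The means were 226.4 ± 88.5 and 145.3 ± 18.8 CPM (SD, n = 4 each), and the log2 fold change of -0.64 (SE 0.234, 95% interval -1.17 to -0.11) did not pass the test (edgeR adjusted p = 0.061). Without control 518 the log2 fold change was -0.32 (edgeR adjusted p = 0.11). Bcat2 passed without control 511 (-0.79, edgeR adjusted p = 0.0219), with DESeq2 (-0.63, adjusted p = 0.0244), with limma-voom (-0.52, adjusted p = 0.0391) and in the authors' deposited table (log2 fold change -0.66, FDR 0.0175). The table lists 3 transcript rows for Bcat2, and the ratio of the group means on the log2 scale was -0.64 in each of them. In GENCODE 13.9% of the exon bases of Bcat2 lie opposite the gene 0610005C13Rik, whose own row held 0.148 CPM in controls. Counting did not use strand, and the part of that gene in the counts of Bcat2 was not tested.

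The dehydrogenase complex is built of a decarboxylase (E1, from Bckdha and Bckdhb), a transacylase core (E2, Dbt) and a dehydrogenase (E3, Dld) that it shares with other complexes. Bckdha (NM_007533; chromosome 7, 25629852 to 25658761, minus strand) encodes the alpha chain of E1, the chain phosphorylated by the kinase. Bckdha stood at 910.2, 906.8, 966.2 and 887.4 CPM in controls 511, 514, 517 and 518, and at 626.9, 580.6, 588.1 and 590.2 CPM in knockouts 512, 513, 515 and 516. Both groups were narrow and lay far apart, with means of 917.6 ± 33.9 and 596.4 ± 20.7 CPM (SD, n = 4 each). Bckdha fell by 0.62 on the log2 scale, which is 1.54-fold lower (SE 0.0647, edgeR adjusted p = 0.000366), the smallest adjusted p of the 10 enzymes. Counting did not use strand, and a longer GENCODE model of B3gnt8, a glycosyltransferase gene on the opposite strand, covers 61.7% of the exon bases of Bckdha. The row counted as B3gnt8 (chromosome 7, 25627624 to 25629490) ends before Bckdha starts, so its level does not measure those bases.

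Bckdhb (NM_199195; chromosome 9, 83948781 to 84124240, plus strand), the beta chain of E1, stood at 191.9, 179.9, 152.3 and 244.4 CPM in controls 511, 514, 517 and 518. In knockouts 512, 513, 515 and 516 it stood at 141.3, 129.1, 149.6 and 173.0 CPM. Knockout 516 lay above control 517, so the groups overlapped. The means of Bckdhb were 192.1 ± 38.6 and 148.2 ± 18.5 CPM (SD, n = 4 each), with a log2 change of -0.37 (SE 0.145, 95% interval -0.70 to -0.05) that did not pass (edgeR adjusted p = 0.0734). Without control 517 it passed (-0.47, edgeR adjusted p = 0.0318), and without control 518 the value was -0.21 (edgeR adjusted p = 0.186).

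Dbt (NM_010022; chromosome 3, 116513079 to 116549981, plus strand), the E2 core that carries the acyl group, stood at 245.3, 327.2, 348.1 and 360.0 CPM in controls 511, 514, 517 and 518. In knockouts 512, 513, 515 and 516 it stood at 233.0, 211.1, 195.1 and 188.4 CPM. The groups were separate but close at control 511 and knockout 512. Dbt fell from 320.1 ± 51.7 to 206.9 ± 19.9 CPM (SD, n = 4 each), or a log2 change of -0.63 (SE 0.126, edgeR adjusted p = 0.00548). The shared E3 gene Dld, outside the 10, fell by 0.52 (SE 0.0698, edgeR adjusted p = 0.000958).

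Bckdk (NM_009739; chromosome 7, 127904073 to 127909664, plus strand) encodes the kinase that inhibits the complex. Bckdk stood at 210.1, 200.2, 196.2 and 179.9 CPM in controls 511, 514, 517 and 518, and at 179.0, 171.5, 172.5 and 173.5 CPM in knockouts 512, 513, 515 and 516. The knockouts lay below all controls, but control 518 and knockout 512 nearly met. The means were 196.6 ± 12.6 and 174.1 ± 3.37 CPM (SD, n = 4 each), and the log2 fold change of -0.18 (SE 0.0648, 95% interval -0.32 to -0.03) did not pass (edgeR adjusted p = 0.0636). Bckdk passed with DESeq2 (-0.16, adjusted p = 0.033), with limma-voom (-0.20, adjusted p = 0.0246) and without control 518 (-0.19, edgeR adjusted p = 0.0388), while the authors' deposited table gives it a log2 fold change of -0.19 and an FDR of 0.387. The opposing phosphatase Ppm1k rose from 34.9 ± 5.36 to 49.9 ± 4.10 CPM (SD, n = 4 each), or a log2 change of 0.52 (SE 0.117, edgeR adjusted p = 0.00951). Its control libraries held 27.2, 35.7, 39.5 and 37.1 CPM and its knockout libraries 56.0, 48.0, 47.5 and 48.0 CPM, without overlap. With the muscle markers as a covariate Ppm1k had a log2 fold change of 0.51 and did not pass (edgeR adjusted p = 0.0561).

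In the leucine branch all 3 enzymes among the 10 fell. The 250 bases upstream of their start sites are shown, with those of Bckdha, which also fell, and of Bckdk, which did not pass. They come from RefSeq on GRCm38.p6 and are written in the direction of the gene, at chr2:118861744-118861993 (plus strand, Ivd), chr3:36000679-36000928 (minus, Mccc1), chr13:100015640-100015889 (minus, Mccc2), chr7:25658762-25659011 (minus, Bckdha) and chr7:127903823-127904072 (plus, Bckdk). Capitals mark matches on either strand to the CCAAT box (CCAAT, or ATTGG on the other strand), the GC box (GGGCGG) and the TATA box (TATAAA).
Ivd: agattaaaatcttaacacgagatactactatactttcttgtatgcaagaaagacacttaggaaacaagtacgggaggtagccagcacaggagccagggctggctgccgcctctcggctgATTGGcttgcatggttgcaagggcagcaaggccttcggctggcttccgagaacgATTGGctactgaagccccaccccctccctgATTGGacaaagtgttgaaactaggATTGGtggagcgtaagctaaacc
Mccc1: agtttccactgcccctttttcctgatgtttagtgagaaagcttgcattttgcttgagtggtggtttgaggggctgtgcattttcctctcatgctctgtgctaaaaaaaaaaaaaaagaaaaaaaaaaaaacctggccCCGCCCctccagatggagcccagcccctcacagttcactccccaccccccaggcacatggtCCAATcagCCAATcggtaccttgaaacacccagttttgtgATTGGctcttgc
Mccc2: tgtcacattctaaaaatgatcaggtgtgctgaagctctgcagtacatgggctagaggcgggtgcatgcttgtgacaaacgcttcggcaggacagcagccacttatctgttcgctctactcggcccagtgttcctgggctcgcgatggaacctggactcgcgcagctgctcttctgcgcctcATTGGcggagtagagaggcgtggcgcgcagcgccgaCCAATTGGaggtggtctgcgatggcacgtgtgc
Bckdha: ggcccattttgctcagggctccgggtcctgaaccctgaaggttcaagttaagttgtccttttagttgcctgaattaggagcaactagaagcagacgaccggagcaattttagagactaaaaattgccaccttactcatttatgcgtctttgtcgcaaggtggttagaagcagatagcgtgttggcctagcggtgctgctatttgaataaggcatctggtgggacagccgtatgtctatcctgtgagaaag
Bckdk: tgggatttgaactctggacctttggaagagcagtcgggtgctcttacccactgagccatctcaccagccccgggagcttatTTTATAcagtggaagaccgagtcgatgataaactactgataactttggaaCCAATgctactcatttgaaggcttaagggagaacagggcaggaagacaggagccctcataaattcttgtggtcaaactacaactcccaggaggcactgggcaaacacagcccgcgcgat
The CCAAT letters occur 4 times for Ivd, 3 times for Mccc1 and 3 times for Mccc2, where the last pair overlaps on opposite strands. Mccc1 also holds 1 GC box, Bckdk holds 1 CCAAT and 1 TATA match, and Bckdha holds none of these letters. Hibch and Hibadh, which also fell, are not shown. Their 250 upstream bases hold 0 and 1 CCAAT matches and 5 and 2 GC box matches. RefSeq windows of 300 bases (250 before and 50 after the start) were found for 9 of the 10 enzymes, all but Dbt. Bcat2 and Bckdhb have more than 1 start, which makes 11 windows. CCAAT occurred in 7 of 11 windows (6 of 9 enzymes), beside 37.4% of all 32851 windows, the GC box in 4 of 11, beside 35.7%, and the TATA box in 1 of 11, beside 13.6%. The letters bound by estrogen-related receptors (TCAAGGTCA, and its part AAGGTCA) and by NRF1 (GCGCATGC) were searched on both strands too. They occurred in 0 of 11 windows, beside 0.423%, 4.72% and 2.71% of all windows. A match is a run of letters, not a measured binding site.

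Ivd (NM_019826; chromosome 2, 118862000 to 118881357, plus strand) encodes isovaleryl-CoA dehydrogenase, the first step of leucine breakdown after the complex. Ivd stood at 296.6, 347.7, 459.7 and 417.6 CPM in controls 511, 514, 517 and 518, and at 263.2, 263.8, 240.6 and 266.9 CPM in knockouts 512, 513, 515 and 516. The controls were spread, the knockouts were close together and below them. The mean fell from 380.4 ± 72.5 to 258.6 ± 12.1 CPM (SD, n = 4 each), or a log2 change of -0.56 (SE 0.128, edgeR adjusted p = 0.0103). Scaled by library sizes alone, Ivd had a log2 fold change of -0.36 and did not pass (edgeR adjusted p = 0.0701).

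Mccc1 and Mccc2 encode the biotin-carrying alpha chain and the beta chain of methylcrotonyl-CoA carboxylase, the next step. Mccc1 (NM_023644; chromosome 3, 35959306 to 36000678, minus strand) stood at 300.9, 300.6, 369.2 and 363.3 CPM in controls 511, 514, 517 and 518, and at 216.5, 193.2, 200.6 and 208.8 CPM in knockouts 512, 513, 515 and 516. Mccc1 fell from 333.5 ± 37.9 to 204.8 ± 10.1 CPM (SD, n = 4 each), the largest fall of the 10 on the TMM scale, with a log2 change of -0.70 (SE 0.0901, edgeR adjusted p = 0.000755). In GENCODE 8.07% of its exon bases lie opposite Mccc1os, whose own row held 10.9 CPM in controls and 7.56 CPM in knockouts. Counting did not use strand, so that row may hold reads of Mccc1 and is not a separate measure of Mccc1os. Mccc2 (NM_030026; chromosome 13, 99948532 to 100015639, minus strand) stood at 157.9, 158.2, 210.3 and 185.1 CPM in the controls and at 123.3, 116.5, 115.4 and 123.5 CPM in the knockouts, in the same order. Mccc2 fell from 177.9 ± 25.1 to 119.7 ± 4.30 CPM (SD, n = 4 each), or a log2 change of -0.57 (SE 0.0983, edgeR adjusted p = 0.00281). For both chains controls 511 and 514 were the lower pair and controls 517 and 518 the higher pair, and no knockout reached a control.

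Hibch and Hibadh act late in valine breakdown, Hibch releasing 3-hydroxyisobutyrate from CoA and Hibadh oxidising it. Hibch (NM_146108; chromosome 1, 52845046 to 52920860, plus strand) stood at 457.6, 509.1, 515.8 and 534.9 CPM in controls 511, 514, 517 and 518, and at 315.0, 309.6, 338.6 and 345.2 CPM in knockouts 512, 513, 515 and 516. Hibch fell from 504.3 ± 33.0 to 327.1 ± 17.4 CPM (SD, n = 4 each), or a log2 change of -0.62 (SE 0.0744, edgeR adjusted p = 0.000566). The lowest control stood well above the highest knockout. Hibadh (NM_145567; chromosome 6, 52546230 to 52640300, minus strand) stood at 652.8, 760.9, 704.6 and 763.3 CPM in the controls and at 520.8, 452.2, 467.3 and 502.4 CPM in the knockouts, in the same order. Hibadh fell from 720.4 ± 52.6 to 485.7 ± 31.5 CPM (SD, n = 4 each), or a log2 change of -0.57 (SE 0.0808, edgeR adjusted p = 0.0012), again without overlap.

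Single libraries often held the extremes of a group. Control 511 held the lowest control value for 6 of the 10 enzymes, while control 518 held the highest for 5 and control 517 for 4. Among knockouts, library 512 held the highest value for 6 enzymes and library 513 the lowest for 6. The coefficient of variation of the 10 enzymes ran from 3.69% to 39.1% in controls (median 12.7%) and from 1.93% to 13.0% in knockouts (median 5.12%), and it was higher in controls for 10 of 10. The share of all genes with a higher coefficient in controls was not computed. Over all genes tested, log2 CPM also correlated less within controls (0.963 to 0.981) than within knockouts (0.985 to 0.991).

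Around the 10 enzymes, 30 other genes of the pathway were measured, of which 20 were called lower and 2 higher, with a median log2 fold change of -0.38. Of all 14178 genes tested, 2682 (18.9%) were called lower and 2189 higher, with a median of -0.01. The mitochondrial carrier Slc25a44 fell from 262.6 ± 50 to 165.2 ± 10.8 CPM (SD, n = 4 each), or a log2 change of -0.67 (SE 0.124, edgeR adjusted p = 0.00393), alongside Bcat2 (-0.64, not called) at the entry. The cytosolic transaminase Bcat1 was far lower than Bcat2, at 1.66 ± 1.11 CPM in controls and 1.86 ± 0.384 CPM in knockouts (SD, n = 4 each), and was not called (log2 fold change 0.16). Slc7a5, a plasma membrane carrier of large neutral amino acids, was called higher at a level of 1.03 ± 0.350 CPM in controls and 2.07 ± 0.488 CPM in knockouts (SD, n = 4 each; log2 fold change 1.0, SE 0.294, edgeR adjusted p = 0.0284). That call ended without knockout 512, 513 or 515 (edgeR adjusted p = 0.0721, 0.0643 and 0.0598), and in the fit with muscle markers as a covariate (0.128). The rise of Ppm1k was the only other call upwards.

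In the valine branch Acad8 fell by 0.37 and Aldh6a1 by 0.62, so that with Hibch and Hibadh 4 of 4 genes were lower. Echs1, shared by valine and isoleucine, fell by 0.43, and the isoleucine genes Acadsb, Hsd17b10 and Acat1 fell by 0.32, 0.64 and 0.42. All 7 genes of the propionate steps and their vitamin B12 handling were lower (Pcca -0.61, Pccb -0.33, Mcee -0.64, Mut -0.71, Mmaa -0.65, Mmab -0.66 and Mmadhc -0.40). Genes of the electron transfer steps after Ivd and the other acyl-CoA dehydrogenases fell as well, Etfdh by 0.85, Etfa by 0.35 and Etfb by 0.26. Lipt1 and Lias, which take part in supplying the lipoyl group that Dbt needs, fell by 1.06 and 0.58. In GENCODE 17.6% of the exon bases of Lipt1 lie opposite Mitd1 and 9.89% of those of Aldh6a1 opposite Bbof1. For Etfb, 69.1% lie under Gm45233 on the same strand. The part of these neighbours in the counts was not tested. The other lipoylation gene Lipt2 (-0.29) and the biotin genes Hlcs (0.32) and Btd (-0.20) were not called. Nor were Klf15 (-0.33), a transcription factor known to control this pathway, Auh (-0.18), Slc3a2 (0.28) and Slc7a8 (0.88, edgeR adjusted p = 0.0541). Mean levels of Slc7a8 were 8.51 CPM in controls and 15.7 CPM in knockouts, and the groups overlapped. Slc7a8 passed with DESeq2 (adjusted p = 0.0145), with limma-voom (adjusted p = 0.0418) and in the authors' deposited table (0.86, FDR 0.0181). It did not pass with the muscle covariate (edgeR adjusted p = 0.224). The edgeR adjusted p of the called genes in this paragraph lay between 0.000359 (Lias) and 0.0356 (Etfa). The call of Hsd17b10 ended without knockout 513 or 516 (edgeR adjusted p 0.0513 to 0.0583). Etfa was lost without control 514, 517 or 518 or knockout 512, 513 or 515 (0.0538 to 0.095), Etfb without control 514 or 517 or any knockout (0.0514 to 0.0864), and Pccb without knockout 513 or 515 (0.051 to 0.0524). Etfa, Etfb and Pccb also did not pass with upper quartile factors (0.124, 0.173 and 0.0745) or with the muscle covariate (0.133, 0.292 and 0.172). With library sizes alone these 3 did not pass, nor did Acad8, Echs1, Acadsb, Acat1 and Hsd17b10 (0.0723 to 0.56 for the 8). With library factors set by pan-adipocyte genes, 3 of the 20 called lower were still called (Etfdh, Lipt1 and Mut), and Acad8, Echs1, Acadsb, Acat1, Etfa, Etfb, Pccb and Mmadhc stood above 0.

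**Figure D2:**
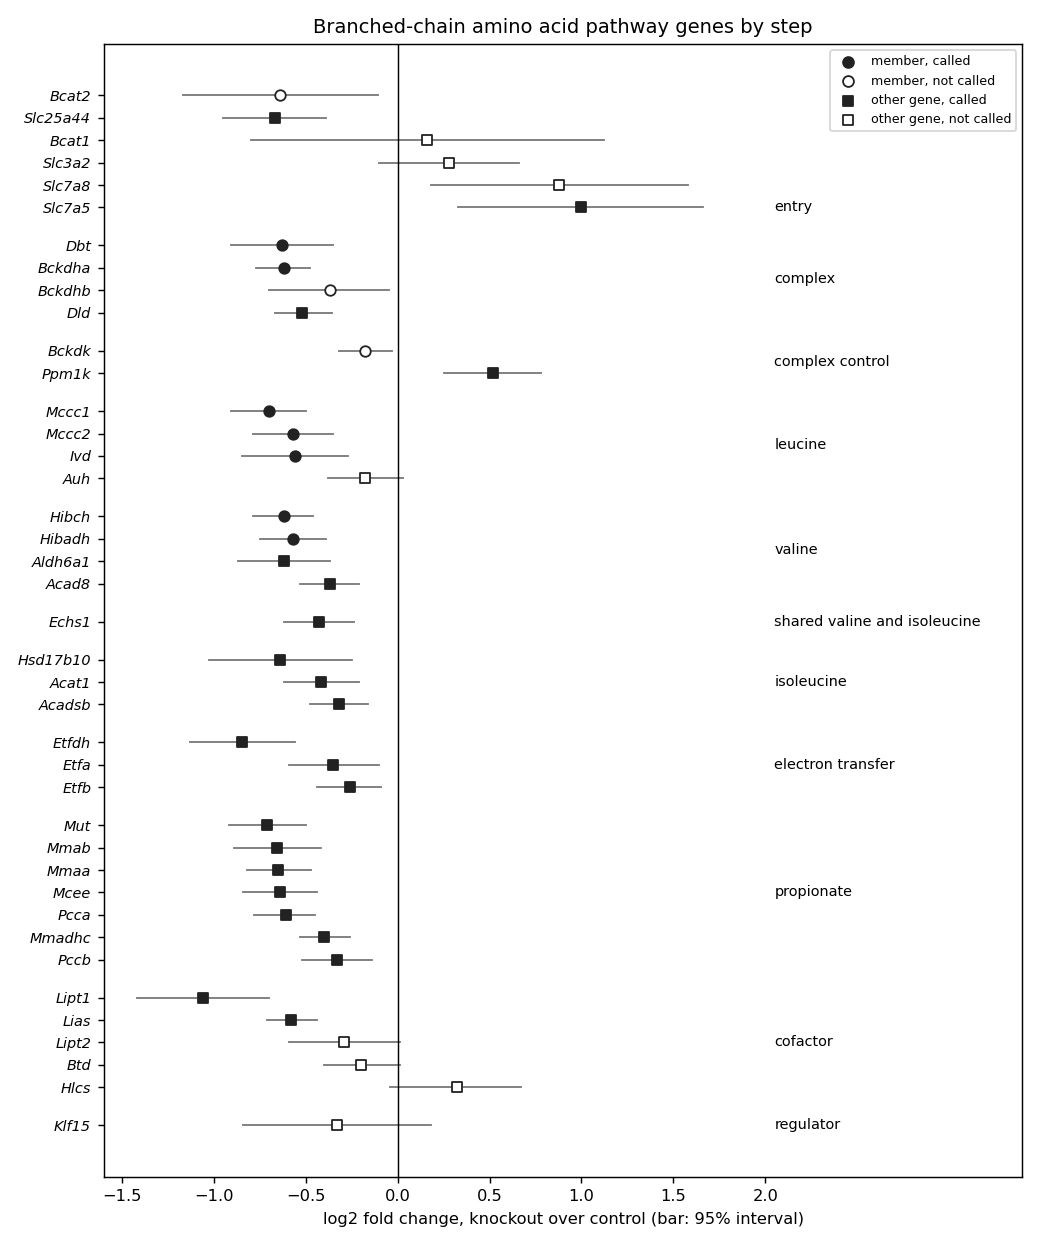
Log2 fold change (x axis, knockout over control, bars 95% intervals) of the 10 enzymes (circles) and 30 other pathway genes (squares), ordered by step, filled where called. On the TMM scale the filled points of the breakdown steps lie below 0, and Ppm1k (0.52) and Slc7a5 (1.0) are the filled points above 0.

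In the authors' deposited table, 8 of the 10 enzymes were lower at an FDR under 0.05, the 7 named above and Bcat2, and 0 were higher. Of all 23372 genes 7.98% were lower in that table. That share includes genes that the filter on low counts left out here, so it is not on the same base as the 18.9% of 14178 genes tested. Bckdhb (-0.39, FDR 0.0817) and Bckdk were not called there. The log2 fold changes in the authors' deposited table ran from -0.19 for Bckdk to -0.72 for Mccc1.

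To compare levels between genes, counts were divided by transcript length. In controls the order of mean CPM per kb was Bckdha (523.2), Hibadh (419.6), Hibch (301.1), Ivd (186.3), Bckdhb (139.7), Bcat2 (129.5), Mccc1 (113.3), Dbt (97.9), Mccc2 (85.2) and Bckdk (69.4). The ranges over libraries were separate between Bckdha and Hibadh, Hibadh and Hibch, Hibch and Ivd, and Mccc2 and Bckdk, while those of the other neighbours overlapped. In knockouts Bckdk (61.5 CPM per kb) passed above Mccc2 (57.3 CPM per kb), with separate ranges, and the order was otherwise the same. The level of Bckdha per length was 3.87 times that of its partner Bckdhb in controls (2.85 to 4.97 over libraries) and 3.19 times in knockouts (2.67 to 3.53). It was 5.46 times that of Dbt in controls and 5.4 times in knockouts, and 7.56 and 5.53 times that of Bckdk. Ppm1k was far lower than the kinase per length, at 6.29 ± 0.966 CPM per kb in controls and 9.0 ± 0.739 CPM per kb in knockouts (SD, n = 4 each).

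**Figure D3:**
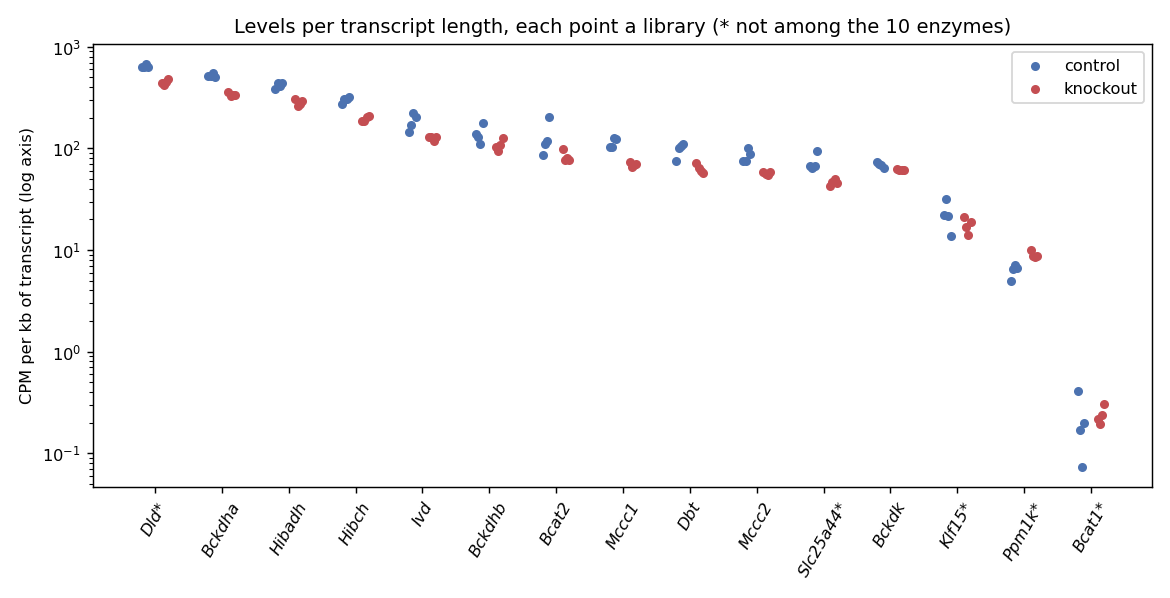
Level in CPM per kb of transcript (log axis) of the 10 enzymes and 5 other pathway genes (starred), each point a library, ordered by the control mean. Bckdha stands highest of the 10 at a mean of 523.2 CPM per kb in controls, and Bcat1 lowest of all shown at 0.212.

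Ratios of counts within a library do not depend on the scaling between libraries, and 8 of them were compared by an exact permutation test over the libraries (two-sided, with a smallest possible p of 0.0286, adjusted over the 8). The log2 ratio of Bckdk over Bckdha was -2.11, -2.18, -2.30 and -2.30 in controls 511, 514, 517 and 518, and -1.81, -1.76, -1.77 and -1.77 in knockouts 512, 513, 515 and 516. It was higher in every knockout, by 0.45 (SE 0.0475, exact permutation p = 0.0286, adjusted p = 0.114). The log2 ratio of the kinase Bckdk over the phosphatase Ppm1k was 2.95, 2.49, 2.31 and 2.28 in controls and 1.68, 1.84, 1.86 and 1.85 in knockouts, in the same order. It was lower in every knockout, with a difference of -0.70 (SE 0.161, exact permutation p = 0.0286, adjusted p = 0.114). Both reached the smallest p the design allows before adjustment, and neither passed after it. Adjusted over 8 ratios, that smallest p could pass only if more of the ratios had reached it. Not passing therefore says little about these 2 differences.

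Within the complex, the ratio of Dbt over Bckdha differed by 0.00 on the log2 scale (SE 0.136, exact permutation p = 1) and that of Bckdhb over Bckdha by 0.26 (SE 0.190, exact permutation p = 0.229, adjusted p = 0.366). The chains of the carboxylase, Mccc2 over Mccc1, differed by 0.14 (SE 0.0392, exact permutation p = 0.0571, adjusted p = 0.152). Hibadh over Hibch differed by 0.06 (SE 0.0612, exact permutation p = 0.486, adjusted p = 0.588), Dld over Dbt by 0.10 (SE 0.154, exact permutation p = 0.514, adjusted p = 0.588) and Bcat1 over Bcat2 by 0.96 (SE 0.651, exact permutation p = 0.2, adjusted p = 0.366). The groups overlapped in these 6 ratios.

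**Figure D4:**
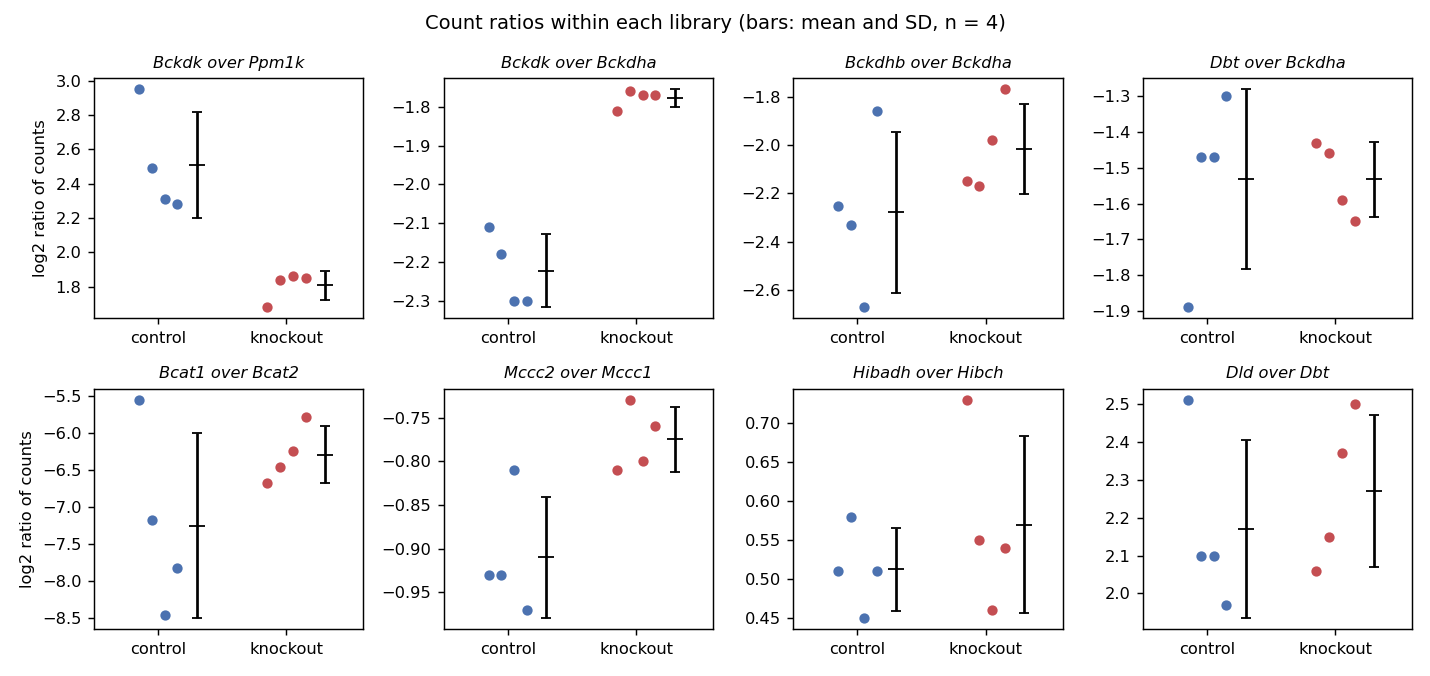
Log2 ratio of the counts of 2 genes within each library (y axis, scale differing between panels and not from 0) for 8 pairs, each point a library, with the mean and SD. The groups are separate for Bckdk over Ppm1k (2.28 to 2.95 against 1.68 to 1.86) and Bckdk over Bckdha, and overlap in the other panels.

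The fall of the 10 enzymes stood beside a lower summed level of general fat cell genes. Summed, the 10 enzymes came to 3574.3, 3882.6, 4130.8 and 4290.0 CPM in controls 511, 514, 517 and 518, and to 2791.9, 2561.5, 2609.3 and 2704.7 CPM in knockouts 512, 513, 515 and 516. The 9 pan-adipocyte genes summed to 20925.2 to 25398.1 CPM in controls and 15528.2 to 17646.7 CPM in knockouts. Of these 9, 5 were called lower, beside 18.9% of all genes tested. The log2 fold changes of the 9 ran from -1.0 to 0.04, with a median of -0.25. The sum gives most weight to the most abundant of them, so it need not show the change of a typical gene of the 9. As a share of that sum the enzymes came to 17.1%, 17.4%, 17.9% and 16.9% in controls and 17.3%, 16.5%, 14.8% and 15.4% in knockouts, so on this scale the groups overlapped. With library factors set by the pan-adipocyte sum, 1 of the 10 enzymes was called lower. It was Mccc1 (-0.25, edgeR adjusted p = 0.0474), and the log2 fold changes of the 10 ran from -0.25 to 0.27 (Bckdk), with Bckdhb at 0.08. Under those factors the all-gene median shifted by 0.45, and the median of the 10 enzymes was then -0.13 beside 0.44 for all genes. With library sizes alone (a shift of 0.198) 6 of the 10 were called lower, Bckdk stood at 0.02, and the median of the 10 was -0.40 beside 0.19 for all genes. With upper quartile factors (a shift of 0.103) all 10 lay below 0 and 7 were called lower, beside 11.5% of all genes.

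Muscle markers moved with the groups in the other direction, with 2 of 20 called higher, a median log2 fold change of 1.56 and none at 0. Skeletal muscle is itself known to express enzymes of this pathway. With the mean muscle marker level as a covariate, 8 of the 10 enzymes were called lower, the 7 and Bcat2 (-0.91, edgeR adjusted p = 0.0451), with a median of -0.64. Under that covariate 12.5% of all genes were called lower. In the reported fit without that covariate, 2682 of all 14178 genes tested were called lower and 2189 higher. Of the other markers in that fit, macrophage genes were called higher in 4 of 6 tested (median 0.63) and Schwann cell genes in 1 of 6 (median 0.25). The lists of fibroblast (median 0.41, 8 genes), endothelial (0.20, 6 genes), smooth muscle and pericyte (0.15, 6 genes) and lymphocyte genes (-0.56, 6 tested) had 0 calls, and 5 of 10 brown adipocyte genes were called lower (median -0.32). The part of these other cell types in the levels of the 10 enzymes was not tested. The muscle covariate, on a standardised scale, ran from -2.2 (control 514) to 0.19 in controls and from 0.30 to 0.99 in knockouts. It did not overlap between the groups, so the fit with it cannot tell muscle content and knockout apart.

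**Figure D5:**
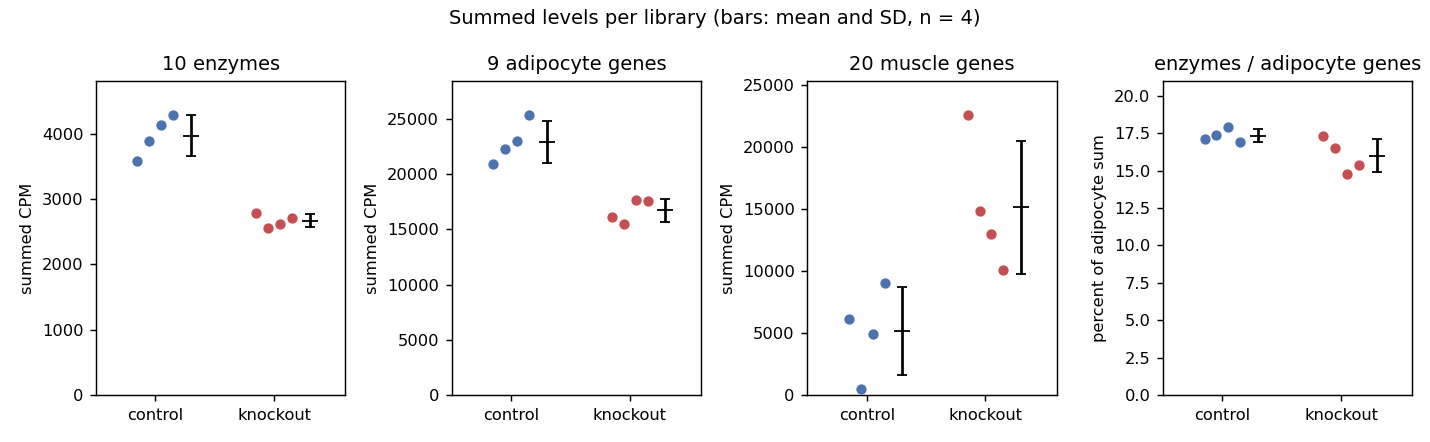
Summed CPM per library of the 10 enzymes, the 9 pan-adipocyte genes and the 20 muscle markers, and the enzymes as a percent of the pan-adipocyte sum (y axes from 0), each point a library with the mean and SD. The enzymes and the pan-adipocyte genes are lower in all 4 knockouts, the muscle markers are higher, and the last panel overlaps (16.9% to 17.9% against 14.8% to 17.3%).

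Beside the 10 enzymes, the mitochondrial fatty acid beta-oxidation list had 11 of 11 genes called lower with a median log2 fold change of -0.53, and the TCA cycle list 10 of 16 with a median of -0.29. Of all genes tested 18.9% were called lower. The difference of the 10 enzymes from these lists was not tested. The genes outside these lists whose profile over the 8 libraries lay nearest to the mean profile of the enzymes were Atp6v0b, Clptm1, Chkb, Afg3l2 and Fcf1, with root mean square distances of 0.0340, 0.0342, 0.0345, 0.0352 and 0.0443 on the log2 scale. The enzymes themselves lay at 0.0686 (Hibadh) to 0.253 (Bcat2) from that mean, with Bckdk at 0.231 and Bckdhb at 0.211. Hibadh, Hibch (0.0812) and Mccc2 (0.0889) followed the common profile most closely of the 10. That profile is the mean of these same 10 enzymes, so each distance is from a mean that includes the enzyme. The outside genes were picked as the nearest of many, so their distances cannot be set against those of the enzymes.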

How the data were processed

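RNA of brown adipose tissue in 8 libraries was aligned to mm10 with TopHat 2, as the submitters' processing notes say; they list HOMER and edgeR too. The authors deposited estimated counts per transcript, made by HOMER over the exons of RefSeq models, on both strands, so overlapping and antisense genes cannot be told apart; 36.9% of values are not whole and all were rounded. The authors' own table was deposited with counts scaled per library (a signal), a fold (ratio), a p-value, an FDR and log2 values, per the file headers.

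Of 30521 rows, 829 without a gene symbol (0.0608% to 0.0824% of counts) were left out. The row with the highest total stood for a symbol, leaving 23372 genes; edgeR's filterByExpr (minimum count 10) kept 14178. The quasi-likelihood test of edgeR 4.0.16 (R 4.3.3) was applied, two-sided, without covariates, with Benjamini-Hochberg adjustment over all genes tested. Control libraries had TMM factors of 0.898 to 0.961 and knockout libraries of 1.05 to 1.10, and the biological coefficient of variation was 0.181. The SE is the log2 fold change divided by the square root of F, an approximation. Ratios used a pseudocount of 0.5 counts. Log2 CPM correlated at 0.963 to 0.981 within controls, 0.985 to 0.991 within knockouts and 0.942 to 0.972 between groups, and no pair agreed within sampling noise (lowest chi-square per degree of freedom 52 and 13.1). The labels name no batch. On simulated counts the edgeR test recovered 2% of genes changed 1.25-fold, 28% changed 1.5-fold, 70% changed 2-fold and 92% changed 4-fold. Each fold had 50 genes drawn from all levels, and there were 7 false calls. A gene that did not pass may therefore still have changed.

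The members and gene lists were chosen with earlier results of these data known. Named were all 10 enzymes, the called genes among the other 30 pathway genes with Bcat1, Slc25a44, Dld, Ppm1k and Klf15, and the 5 genes nearest in profile with at least 5 CPM; the uncalled genes Auh, Slc7a8, Slc3a2, Hlcs, Btd and Lipt2 were added after their values were seen. Alternatives were other scalings, no filter, summed rows, a muscle covariate, DESeq2 1.42.0, limma-voom (limma 3.58.1) with sample weights, and leaving out each library. A further gene of the pathway list is not reported here. Exon overlaps were taken from GENCODE on GRCm38.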

Additional observations from a re-analysis of the deposited data

Results flagged for a closer look

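Among 96 groups of 4 libraries looked at, 7 had a library far from the other 3, and chance alone gives about 1 in 20. Ivd stood at 240.6 CPM in knockout 515, below the 263.2 to 266.9 CPM of the other knockouts. The log2 ratio of Bckdk over Ppm1k was 1.68 in knockout 512, below 1.84 to 1.86 in the others, and Ppm1k itself stood at 56.0 CPM there, above 47.5 to 48.0 CPM. Hlcs was also high in knockout 512, at 17.9 CPM beside 14.1 to 14.7 CPM. In control 518 Slc25a44 stood at 337.2 CPM, above 231.1 to 242.1 CPM in the other controls, and Lias at 98.8 CPM, above 91.9 to 92.7 CPM. Dld stood at 1493.9 CPM in control 517, above 1394.3 to 1409.6 CPM.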

How the results depend on the processing

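No paired analysis was possible because the groups share no replicate number. The 7 enzymes called lower were also called with relative log expression and upper quartile factors, no filter, summed rows, the muscle covariate, DESeq2 and limma-voom (9 enzymes called in each of the last pair), and with each library left out (7 to 8 called), and 6 of them with library sizes alone; with pan-adipocyte factors 1 was called. The other pathway genes called lower numbered 12 with library sizes alone and 3 with pan-adipocyte factors; those called higher numbered 5 and 6 there, 0 with the muscle covariate, and 1 to 4 when a library was left out. All genes called lower numbered 2682 in the reported fit, 1625 with upper quartile factors, 930 with library sizes alone, 204 with pan-adipocyte factors and 1767 with the muscle covariate; those called higher numbered 2189, and 4077, 7757 and 1396 under the last 3. With pan-adipocyte factors these log2 fold changes turned positive: Acad8 0.09, Echs1 0.02, Acadsb 0.14, Acat1 0.04, Etfa 0.11, Etfb 0.18, Pccb 0.12, Mmadhc 0.06 and Btd 0.26. The cause was not tested.

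With 1 library left out, none of the 8 ratios passed after adjustment (exact permutation tests, adjusted p from 0.0762). The smallest possible p again made it hard for any ratio to pass, whatever its difference. Bckdk over Ppm1k differed by -0.78 to -0.55 and Bckdk over Bckdha by 0.42 to 0.48, each with p = 0.0286 in all 8 exact permutation tests, the smallest that 3 against 4 libraries can give.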
